A study of Mus musculus with 15 samples.

Results

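Poly(I:C) mimics the double-stranded RNA of viruses, and the 10 genes described here encode the mouse proteins that bind such RNA or carry its signal on. They were named for their function, with earlier results of these data known, and comprise the receptor Tlr3, the helicases Ddx58, Ifih1, Dhx58 and Ddx60, the adaptors Ticam1 and Mavs, and the effectors Eif2ak2, Zbp1 and Adar. All 10 were found among the 32543 gene entries of the count table, and all 10 passed the filter on low counts that left 15494 genes for testing. RNA was sequenced from 15 subcutaneous tumors of WEHI 164, a mouse fibrosarcoma line, grown in wild-type female BALB/c mice. The day 0 group was left untreated, and the other groups were taken 1, 3, 5 or 7 days from the start of daily intratumoral (i.t.) poly(I:C). It was labelled as 1 µg in 25 µL for up to 6 doses, with 3 tumors a day. A daily course of 6 doses ends before day 7. The dose is not certain, because a figure legend among the study's supplements states a larger amount per day. No vehicle-injected group was among the samples, so injection itself, the passing of time and poly(I:C) cannot be told apart. A tumor here is the cell line plus whatever host cells had entered it, since the surrounding tissue was removed but the cells were not sorted.

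Cells sense double-stranded RNA in separate compartments. TLR3 binds it inside endosomes and signals through TRIF, the product of Ticam1. In the cytosol, RIG-I (Ddx58) and MDA5 (Ifih1) bind it and pass the signal to MAVS on the outer mitochondrial membrane, while LGP2 (Dhx58) binds RNA but lacks the signalling domains of the other RIG-I-like receptors. Both routes lead to type I interferon (IFN), and interferon in turn induces many of the sensors, so that a cell already exposed to it responds more readily. PKR (Eif2ak2) shuts down translation on binding double-stranded RNA, ZBP1 binds left-handed nucleic acids and can start necroptosis through RIPK3, and ADAR1 (Adar) edits adenosines in double-stranded RNA and thereby keeps the cell's own RNA from setting off these sensors. DDX60 is an interferon-inducible helicase linked to the RIG-I-like receptors.

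Promoter windows are shown because interferon acts on such genes through a short element in the DNA, the interferon-stimulated response element (ISRE). RefSeq windows on GRCm38.p6, running from 250 bases before to 50 bases after the transcription start, were held for 8 of the 10 genes (10 windows, 3 of them of Adar). Dhx58 and Zbp1 had none in the table used. The ISRE core searched was the half-site GAAA, any 2 bases, and GAAA again, on either strand. It was matched in 4 of these 8 genes, Ddx60, Ddx58, Ifih1 and Eif2ak2, and in 3.99% of all 27025 genes with a window. The stretches below are written 5′ to 3′ on the strand of the gene, with the matched core in capitals. Positions count from the transcription start, with the first transcribed base as 1 and the base before it as -1. The Ddx60 stretch (chr8:61928007-61928086, plus strand) holds the last 80 bases before the start and has 2 copies of the same core, at -53 to -44 and at -19 to -10. Those of Ddx58 (chr4:40239804-40239833, minus strand, core at 3 to 12), Ifih1 (chr2:62646206-62646235, minus strand, core at 33 to 42) and Eif2ak2 (chr17:78882535-78882564, minus strand, core at 19 to 28) show the 30 bases around a core just past the start, which in Ddx58 lies on the opposite strand. The last 80 bases before the start of Mavs (chr2:131233983-131234062, plus strand) and of Ticam1 (chr17:56276768-56276847, minus strand) are given beside them for the adaptors, whose windows had no match.
Ddx60: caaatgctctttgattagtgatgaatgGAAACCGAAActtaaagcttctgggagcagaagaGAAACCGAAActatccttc
Ddx58: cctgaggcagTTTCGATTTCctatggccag
Ifih1: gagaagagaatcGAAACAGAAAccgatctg
Eif2ak2: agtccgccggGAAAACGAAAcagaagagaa
Mavs: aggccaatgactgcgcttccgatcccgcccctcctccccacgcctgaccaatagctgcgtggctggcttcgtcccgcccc
Ticam1: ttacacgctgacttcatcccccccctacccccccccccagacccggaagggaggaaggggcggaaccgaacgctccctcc
The windows of Tlr3 and Adar had no ISRE core either. The only Tlr3 window, with 45410331 as its lowest coordinate, surrounds a start inside the annotated gene. The annotated start, at 45411080 on the minus strand, lay outside this window and was not searched. A match describes the letters and is not a bound site, and the lack of one says only that these letters are not in the window.

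Total counts per tumor ranged from 23.7 to 31.9 M (mega-counts). Levels below are CPM, counts per mega-count of the library after TMM scaling, and 3 counts corresponded to 0.0972 to 0.125 CPM depending on the tumor, so that none of the 10 genes was near the limit of detection. Day 3 replicate 1 stood apart from the other tumors, with a mean correlation of 0.884 against 0.956 or more, and its summed level of 8 skeletal muscle markers was 3115 CPM, while day 0 tumors held 85.1 to 174 CPM. All 8 fibrosarcoma and mesenchymal markers were detected, with summed levels from 11574 to 12628 CPM on day 0. Day 3 replicate 1 held 32677 CPM of them, the highest of all 15 tumors. It was also highest in macrophage (6545 CPM), endothelial (551), T cell (318), dendritic (267), adipocyte (266), B cell (196) and neutrophil (190) markers. It was not the highest in NK cell (371 CPM), keratinocyte (4.79) or erythroid (28.7) markers. Because the tumors are bulk samples, a difference in the number of cells that express a gene and a difference in RNA per cell cannot be told apart. Each tumor counted as a separate replicate, the experiment having been run once.

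Tlr3 (chr8:45395665-45411080, GRCm38, minus strand), the endosomal receptor, stood at 17.6, 21.1 and 20.8 CPM in the untreated tumors of day 0. On day 1 its level was 29.6, 22.9 and 47.7 CPM, and on day 3 it was 31.6, 37.5 and 30.9 CPM. Every tumor of days 1 and 3 was thus above every untreated tumor, by a narrow margin for day 1 replicate 2. It was 24.05, 25.5 and 19.7 CPM on day 5 and 19.4, 19.4 and 15.7 CPM on day 7, where the ranges overlapped those of day 0. The fitted log2 fold change against day 0 was 0.75 ± 0.22 (SE) on day 1 and 0.75 ± 0.22 on day 3, a level 1.68 times that of day 0 on both days. Neither passed the edgeR test after adjustment over all genes (adjusted p = 0.963 and 0.115). An antisense gene shares 7.32% of the exon bases of Tlr3 in the annotation, and the strandedness of the counting was not given, so part of its reads could not be assigned with certainty.

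**Figure D1:**
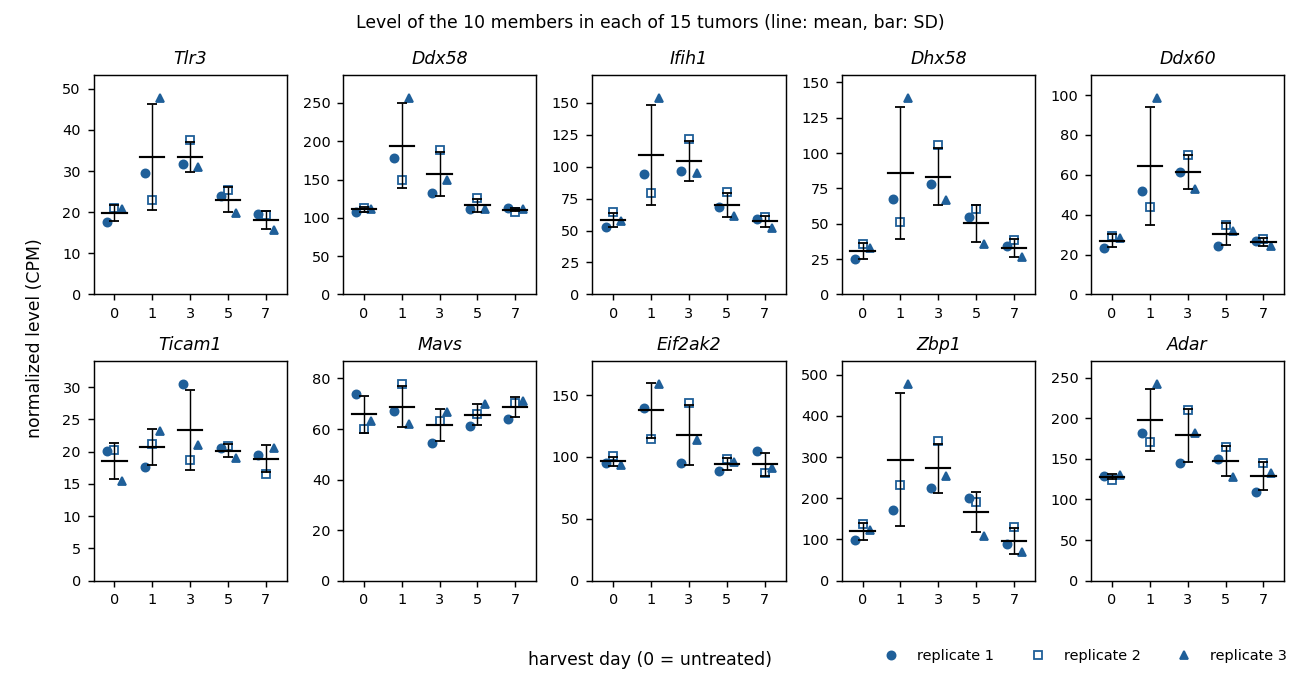
Level of each of the 10 genes (CPM, y axis starting at 0) in each of 15 tumors by harvest day (x axis), with the mean as a line and the SD as a bar. Day 1 replicate 3 (triangle) was the highest of all 15 tumors in 8 of the 10 genes, while Ticam1 and Mavs had overlapping ranges on every pair of days with day 0.

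The RIG-I-like receptors had a similar course over the days. Ddx58 (chr4:40203773-40239828, minus strand), which encodes RIG-I, was at 108, 113 and 112 CPM on day 0 and at 178, 149 and 256 CPM on day 1. It was at 133, 189 and 149 CPM on day 3. All 6 tumors lay above the untreated ones, whose spread was narrow (SD 2.65 CPM). By day 7 the values were 113, 108 and 112 CPM, as close together as those of day 0 and overlapping them. The fitted log2 fold change was 0.81 ± 0.17 on day 1 and 0.50 ± 0.17 on day 3 (edgeR adjusted p = 0.641 and 0.116).

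Ifih1 (chr2:62595798-62646255, minus strand), which encodes MDA5, the sensor of long double-stranded RNA, was at 52.9, 64.1 and 57.7 CPM on day 0. Its level was 93.9, 79.5 and 154 CPM on day 1 and 96.5, 122 and 94.6 CPM on day 3, again with no overlap with day 0. On day 5 it was 68.2, 80.1 and 61.4 CPM, which overlapped day 0 through replicate 3. Fitted log2 differences were 0.90 ± 0.21 for day 1 and 0.84 ± 0.21 for day 3, with edgeR adjusted p = 0.641 and 0.115.

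Dhx58 (chr11:100694884-100704271, minus strand), which encodes LGP2, had the largest fitted differences of the 10 genes on days 1, 3 and 5. It was at 24.7, 35.7 and 32.6 CPM on day 0, at 67.2, 51.5 and 139 CPM on day 1 and at 77.9, 106 and 66.6 CPM on day 3. It was the only member whose 3 tumors of day 5, at 54.5, 60.3 and 35.7 CPM, were all above day 0 (6.89% of all genes), though the lowest of them and the highest untreated tumor round to the same value. Fitted on the log2 scale, day 1 differed by 1.47 ± 0.34, day 3 by 1.43 ± 0.34 and day 5 by 0.70 ± 0.33 (edgeR adjusted p = 0.641, 0.115 and 0.859). An annotated antisense gene shares 4.31% of its exon bases.

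Ddx60 (chr8:61928087-62038244, plus strand), the gene with the pair of ISRE cores, was at 23.1, 29.4 and 28.2 CPM on day 0. It was at 51.7, 43.7 and 98.5 CPM on day 1 and at 61.6, 69.8 and 52.8 CPM on day 3. The lowest treated tumor of these days was therefore well above the highest untreated tumor. On day 5 its level of 24.05, 35.0 and 32.04 CPM overlapped day 0. Its log2 fold change was 1.26 ± 0.26 on day 1 and 1.19 ± 0.26 on day 3. In the joint test of the 4 treated days Ddx60 ranked first of all 15494 genes by edgeR, with an unadjusted p of 0.000162 and an adjusted p of 0.292.

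The adaptors took another course. Mavs (chr2:131234063-131248025, plus strand) was at 74.0, 60.2 and 63.1 CPM on day 0, at 67.03, 77.7 and 62.0 CPM on day 1 and at 54.6, 63.4 and 66.7 CPM on day 3. Its ranges overlapped day 0 on every day. The log2 fold change was 0.07 ± 0.11 on day 1, with a 95% interval from -0.18 to 0.31, and -0.10 ± 0.11 on day 3, with an interval from -0.34 to 0.15. These intervals exclude a change of 1.5 times in either direction, and within them the data do not fix a direction.

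Ticam1 (chr17:56269319-56276786, minus strand), the TRIF gene, was the second adaptor. Its level was 20.1, 20.3 and 15.4 CPM on day 0, 17.6, 21.2 and 23.1 CPM on day 1 and 30.4, 18.7 and 21.0 CPM on day 3. The highest of these came from day 3 replicate 1, the tumor with muscle markers. The log2 fold change was 0.15 ± 0.18 on day 1 and 0.33 ± 0.18 on day 3 (edgeR adjusted p = 1.00 and 0.216), and without that tumor the day 3 value was 0.096. The 95% interval on day 3 ran from -0.06 to 0.72.

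Among the effectors, Zbp1 (chr2:173206612-173218923, minus strand) varied most between tumors. It was at 97.9, 138 and 123 CPM on day 0, at 172, 233 and 477 CPM on day 1 and at 225, 340 and 254 CPM on day 3. All 6 treated tumors of these days were above the untreated ones. Levels of 200, 191 and 110 CPM on day 5 and of 88.6, 131 and 69.8 CPM on day 7 overlapped day 0. The log2 fold change was 1.30 ± 0.36 on day 1 and 1.19 ± 0.36 on day 3 (edgeR adjusted p = 0.926 and 0.115).

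Adar (chr3:89715022-89753446, plus strand), the editing enzyme, was at 128, 124 and 130 CPM on day 0, at 181, 171 and 242 CPM on day 1 and at 145, 210 and 182 CPM on day 3. These did not overlap day 0, and on day 5 the values of 150, 164 and 128 CPM did. The log2 fold change was 0.63 ± 0.17 on day 1 and 0.49 ± 0.17 on day 3 (edgeR adjusted p = 0.828 and 0.115). Adar shares 16.8% of its exon bases with Chrnb2 on the opposite strand, and its interferon-driven and constitutive transcripts were summed in these gene counts.

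Eif2ak2 (chr17:78852564-78882573, minus strand), which encodes PKR, had the smallest differences of the sensors and effectors. It was at 94.8, 101 and 93.7 CPM on day 0 and at 140, 114 and 159 CPM on day 1, without overlap. On day 3 it was at 95.3, 143 and 114 CPM, where replicate 1 fell within the untreated range. The log2 fold change was 0.51 ± 0.15 on day 1 and 0.29 ± 0.15 on day 3 (edgeR adjusted p = 0.937 and 0.198), and the latter ranged from 0.12, if day 3 replicate 2 was dropped, to 0.42, if replicate 1 of that day was.

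With the edgeR quasi-likelihood test, 0 of the 10 genes had an adjusted p under 0.05 in any comparison, and the same held for 0% of the 15494 genes tested. At an unadjusted p under 0.05, 8 of 10 were higher on day 1, against 2.18% of all genes, and 7 of 10 on day 3, against 18.3%. The 8 were all but Mavs and Ticam1, and the 7 also lacked Eif2ak2. Counted by tumors that did not overlap, 8 of 10 were higher on day 1 (5.76% of all genes) and 7 of 10 on day 3 (19.4%), the same genes as by unadjusted p. DESeq2, run as an alternative, called 4 of 10 higher on day 1 (Ddx58, Ifih1, Dhx58 and Ddx60, against 0.239% of all genes) and 7 of 10 on day 3, against 9.02%. In the joint test of the treated days, 8 of 10 had an unadjusted edgeR p under 0.05 (16.2% of all genes) and DESeq2 called 8 (7.59%). The share of all genes past each limit was several times larger on day 3 than on day 1. Without day 1 replicate 3, edgeR called 3 of 10 on day 3 (0.395% of all genes). Without day 3 replicate 1, DESeq2 called 7 on day 1 (0.462%) and 3 on day 3 (0.553%).

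Over the 10 genes, the fitted log2 differences from day 0 had medians of 0.78, 0.63, 0.19 and -0.01 on days 1, 3, 5 and 7 in turn, while the median over all genes lay between -0.02 and 0.00. These 4 comparisons share the day 0 tumors. On day 5, edgeR gave 0 of 10 genes an unadjusted p under 0.05 (4.8% of all genes), and DESeq2 called 0 (0.071%). On day 7 the corresponding counts were 0 of 10 (2.07%) and 0 (0.0323%). The largest fitted difference of day 7 from day 0 was in Zbp1, at -0.31 ± 0.36 on the log2 scale. Its 95% interval from -1.09 to 0.47 includes both a loss and a gain.

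**Figure D2:**
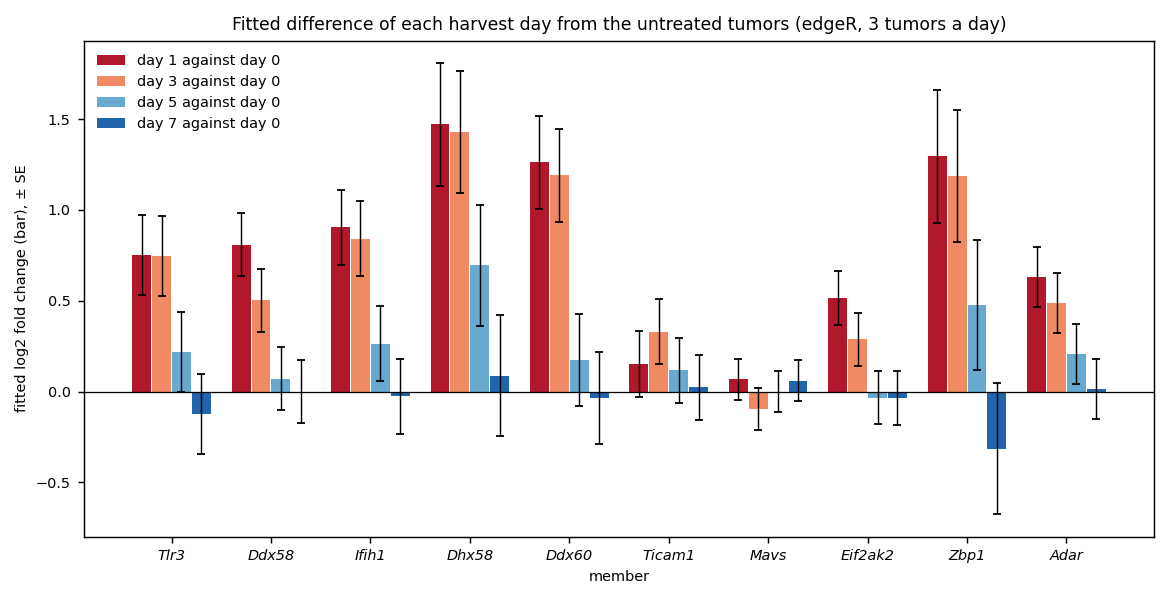
Fitted log2 fold change of each gene (bars, ± SE) on days 1, 3, 5 and 7 against day 0, from edgeR with 3 tumors a day. Dhx58, Zbp1 and Ddx60 had the tallest bars on days 1 and 3 (1.19 to 1.47), and the bars of day 7 lay between -0.31 and 0.09.

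Set against day 3, 1 of the 10 genes had a fitted log2 difference above 0 on day 7 (51.6% of all genes). The log2 difference was -1.50 ± 0.37 for Zbp1, -1.34 ± 0.34 for Dhx58, -1.23 ± 0.26 for Ddx60, -0.88 ± 0.22 for Tlr3 and -0.87 ± 0.21 for Ifih1. The gene above 0 was Mavs, at 0.16 ± 0.11. At an unadjusted edgeR p under 0.05, 8 of 10 were lower (22.6% of all genes), the smallest adjusted p being 0.0832, and DESeq2 called 7 of 10 lower (15.1%). Leaving out day 1 replicate 3, edgeR called 4 of 10 (0.375% of all genes), and leaving out day 3 replicate 3 it called 5 (13.6%). DESeq2 called 5 when day 3 replicate 1 was left out (0.605%). This comparison reuses the day 3 tumors of the comparison with day 0.

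The spread between tumors of a day was itself shared by the genes. Day 1 replicate 3 was the highest of all 15 tumors in 8 of 10 genes, the exceptions being Mavs and Ticam1. In Dhx58 it lay at 4284 counts against 2011 and 1291 in the other tumors of day 1. Without it, the median log2 fold change of day 1 was 0.51, and that of Tlr3 was 0.41, of Zbp1 0.76, of Dhx58 0.94, of Ddx60 0.83 and of Ifih1 0.58. Day 3 replicate 2 was the highest of its day in 8 genes, and so was day 5 replicate 2. On day 5, replicate 3 was the lowest of its day in 7 genes.

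**Figure D3:**
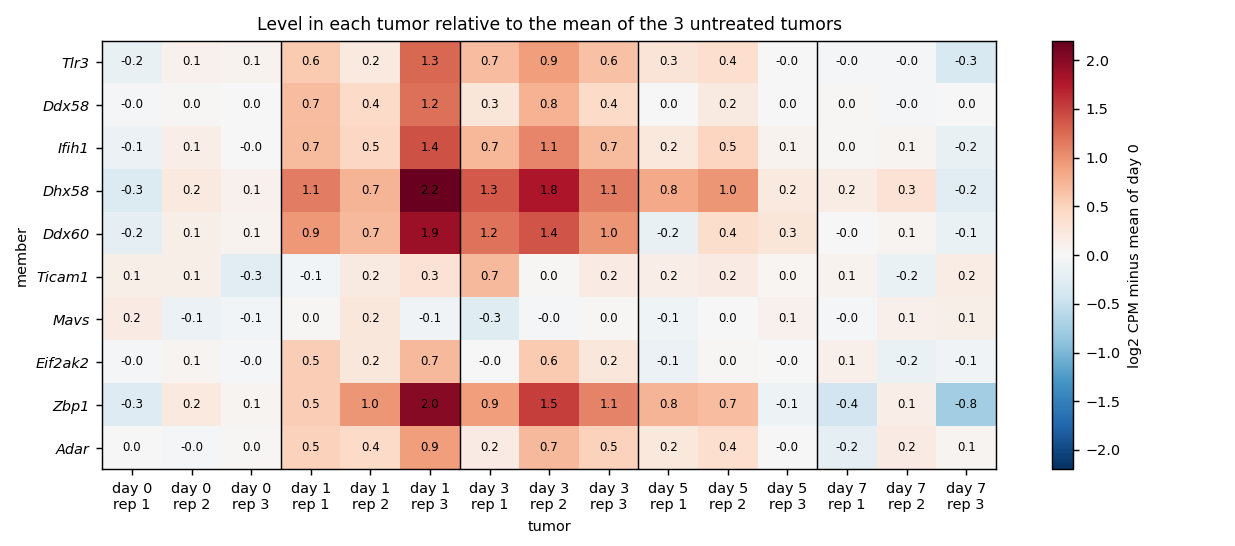
Log2 CPM of each gene (rows) in each tumor (columns) minus the mean of the 3 untreated tumors, with blue below and red above it. The darkest column is day 1 replicate 3, and the rows of Mavs and Ticam1 stay pale beside those of Dhx58, Ddx60 and Zbp1.

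Over the 15 tumors, the log2 CPM of the 8 genes other than Mavs and Ticam1 had pairwise Pearson correlations from 0.70 to 0.98 (28 pairs, median 0.90), and from 0.56 to 0.98 without day 1 replicate 3. The closest pair was Tlr3 and Ifih1. Mavs had correlations of -0.48 to -0.06 with these 8, and Ticam1 of 0.07 to 0.42. All points share libraries and harvest days, so these values describe the tumors and were not tested.

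A ratio of counts within a tumor does not depend on library scaling, and Mavs was used as its denominator. Ddx58 had 1.46, 1.87 and 1.78 counts per count of Mavs in the untreated tumors and 2.43, 2.98 and 2.23 on day 3. For Dhx58 the ratio was 0.334, 0.593 and 0.516 on day 0 and 1.43, 1.67 and 0.998 on day 3. In Tlr3 it was 0.238, 0.350 and 0.330 on day 0 and 0.579, 0.592 and 0.463 on day 3. On day 3 the ratio of all 8 sensors and effectors was above day 0 in every tumor (16.5% of all genes), and that of Ticam1 (0.244 to 0.337 on day 0, 0.295 to 0.558 on day 3) was not. For Eif2ak2, whose level in CPM overlapped, the lowest ratio of day 3 was 1.71 against a highest of 1.67 on day 0. Replicate 1, the tumor with muscle markers, had the lowest Mavs level of that day, and there the ratio of Eif2ak2 was 1.74. On day 1 the ratio was above day 0 for 5 genes, Ddx58, Dhx58, Ddx60, Zbp1 and Adar (1.19% of all genes). The ratios of Tlr3, Ifih1 and Eif2ak2 overlapped on day 1 through replicate 2, the tumor with the highest Mavs level.

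**Figure D4:**
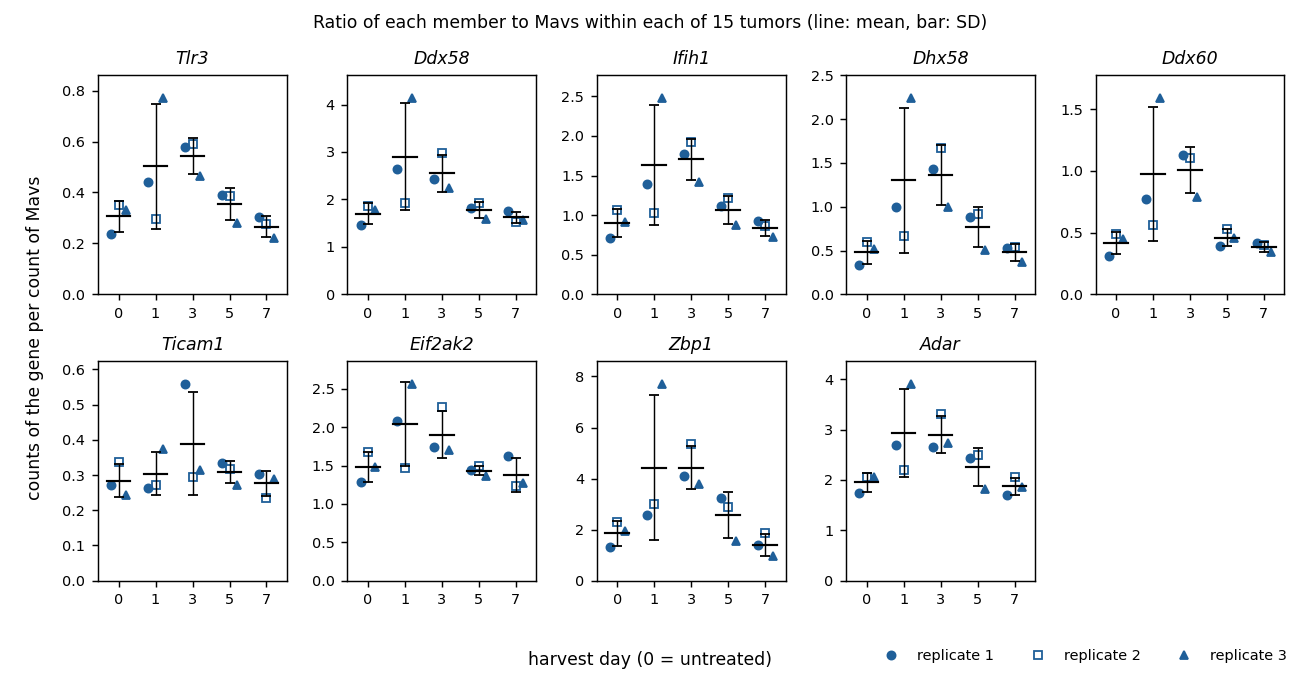
Counts of each gene per count of Mavs within each tumor (y axis starting at 0) by harvest day, with the mean as a line and the SD as a bar. Dhx58 averaged 0.481 on day 0 and 1.36 on day 3, and Ticam1 averaged 0.284 and 0.389 with overlapping tumors.

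Levels between genes were compared per kilobase of exon, from the union of annotated exons. On day 0 Zbp1 stood highest at 34.0 ± 5.80 CPM per kilobase (SD, n = 3), followed by Mavs (19.7 ± 2.18) and Eif2ak2 (18.9 ± 0.722), which overlapped each other. Adar (15.7 ± 0.391) and Ddx58 (15.7 ± 0.376) came next and did not differ beyond their spread. Below them were Dhx58 (9.47 ± 1.72), Ifih1 (7.13 ± 0.691) and Ticam1 (6.21 ± 0.919), each overlapping its neighbour. Tlr3 (3.81 ± 0.368) and Ddx60 (3.10 ± 0.385) were lowest and overlapped. On day 3 Dhx58, at 25.5 ± 6.16 CPM per kilobase, ranked second behind Zbp1 (77.4 ± 17.0), Mavs was sixth (18.4 ± 1.87), and Tlr3 was last (6.40 ± 0.697). From rank 2 to rank 6 neighbours overlapped on that day, so the order among Dhx58, Eif2ak2, Ddx58, Adar and Mavs was not resolved, nor was that among Ticam1, Ddx60 and Tlr3 at the bottom. By day 7 the order was that of day 0. The union of exons can overstate the length of a gene with alternative ends, so these values depend on the annotation.

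**Figure D5:**
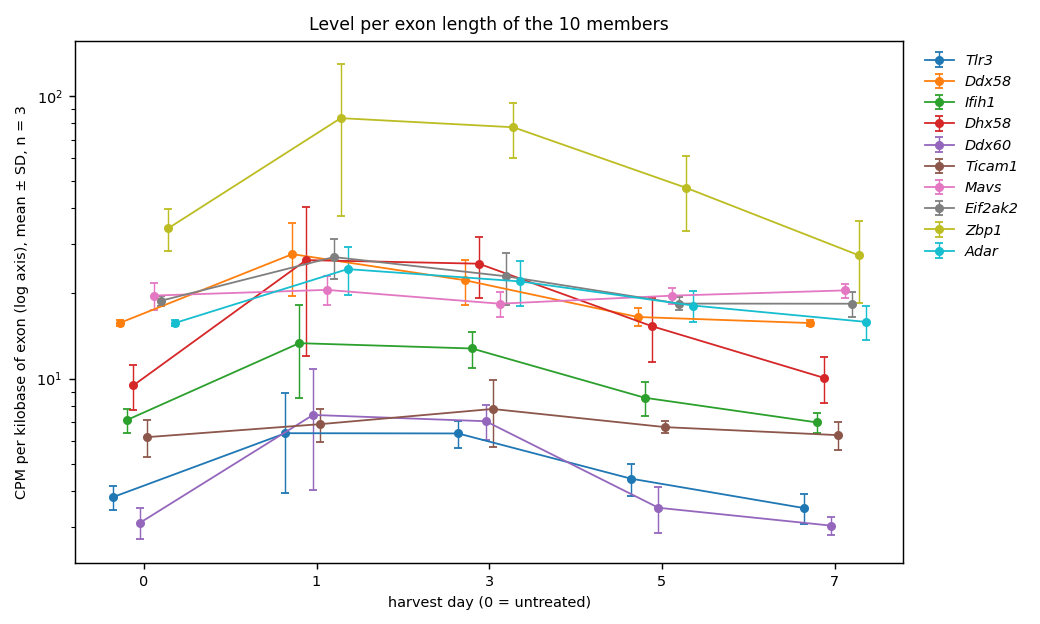
Level per kilobase of exon (CPM per kilobase, log axis, mean ± SD, n = 3 tumors) of each gene by harvest day. Mavs runs nearly flat between 18.4 and 20.6 CPM per kilobase, while Dhx58 goes from 9.47 on day 0 to 26.2 on day 1 and 10.1 on day 7.

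The genes whose log2 CPM ran most like Tlr3 over the 15 tumors were Mx1 (Pearson 0.977), Oas1a (0.974), Rtp4 (0.973), Ifi204 (0.973) and Oas1b (0.970). The log2 CPM of each of the 10 genes was also scaled to z-scores over the tumors, and these were averaged with equal weight. The genes most like that mean were Oasl2 (0.984), Herc6 (0.983), Misp (0.980), Oas3 (0.972) and Ifit3 (0.969). Without day 3 replicate 1 the values for Tlr3 moved by less than 0.01, and among the genes most like the mean, Oasl2 ranked 3, Oas3 9 and Ifit3 11. Counts of Oas1a, Oas1b and Ifi204 are uncertain because their families hold near-identical copies.

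Of the genes that relay both sensing routes to interferon (19, all tested), 13 were above 0 on the log2 scale on day 3 (48% of all genes), and their median was 0.11. None was called by edgeR in any comparison, 5 were higher on day 3 at an unadjusted p under 0.05 (18.3% of all genes), and DESeq2 called 3 (9.02%). Without day 3 replicate 1, their day 3 median was 0.03 and DESeq2 called Irf7 alone. The DESeq2 adjusted p was then 0.146 for Ikbke and 0.259 for Tbk1. Irf7, the interferon-inducible transcription factor that amplifies type I IFN, averaged 80.9 ± 18.7 CPM on day 0 and 500 ± 122 CPM on day 3. Its log2 fold change was 2.63 ± 0.51 (edgeR adjusted p = 0.115), larger than that of any of the 10 sensors and adaptors. The kinase genes Ikbke and Tbk1 had 1.54 ± 0.40 and 0.41 ± 0.12 (edgeR adjusted p = 0.115 for each). Fadd, an adaptor of death receptors, stood at 0.01 ± 0.13.

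Ifnb1, the interferon beta gene itself, was near the limit of detection. It had 1 to 6 counts in 14 tumors and 21 counts in day 1 replicate 3, the tumor in which 8 of the 10 genes were highest. At these counts no difference between days was read.

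The 20 partners and regulators of the RIG-I-like receptors and of MAVS lay on both sides of day 0, and their log2 median was -0.22 on day 3. Without day 3 replicate 1 that median was -0.06. With all tumors, 5 of the 20 had day 3 values all above day 0 and 6 all below, against 19.4% and 19% of all genes. By edgeR, 0 were called on day 3. At an unadjusted p under 0.05, 4 were higher (18.3% of all genes) and 4 lower. DESeq2 called 2 higher (9.02%), and 0 without day 3 replicate 1. The counts of higher genes by p thus lay near the shares of all genes. Rnf135 (Riplet), the ubiquitin ligase that activates RIG-I, averaged 12.5 ± 0.674 CPM on day 0 and 25.7 ± 3.05 CPM on day 3, a log2 fold change of 1.04 ± 0.23 (edgeR adjusted p = 0.115). Nlrx1, a mitochondrial member of the NLR family, had 1.07 ± 0.38 (edgeR adjusted p = 0.119). Trim25, another ubiquitin ligase of RIG-I, had 0.60 ± 0.19 on day 1 and 0.45 ± 0.19 on day 3. Prkra, the activator of PKR, had -0.12 ± 0.16 on day 3. Without day 3 replicate 1, the day 3 values by edgeR were 0.98 for Rnf135, 0.56 for Nlrx1, 0.57 for Trim25 and -0.18 for Prkra.

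The 10 genes for the trafficking and processing of TLR3 and for the partners of TRIF had fitted differences with a log2 median of 0.20 on day 1 and 0.88 on day 3. Without day 3 replicate 1, the tumor with muscle markers, the day 3 median was 0.50. On day 3, edgeR called 0, 6 were higher at an unadjusted p under 0.05 (18.3% of all genes), DESeq2 called 5 higher (9.02%), and 7 lay above day 0 in every tumor (19.4%). None of these DESeq2 calls was left without day 3 replicate 1. Unc93b1, which carries TLR3 to endosomes, averaged 134 ± 28.1 CPM on day 0, 191 ± 85.8 CPM on day 1 and 432 ± 257 CPM on day 3, a day 3 log2 fold change of 1.68 ± 0.48. The protease genes Ctsh and Ctsb had 1.68 ± 0.49 and 1.42 ± 0.41 (edgeR adjusted p = 0.115 for each), while the chaperone Hsp90b1 had -0.23 ± 0.17. By DESeq2 without day 3 replicate 1, Unc93b1 had 1.08, Ctsh 1.04 and Ctsb 0.94 on the log2 scale, with adjusted p of 0.222, 0.249 and 0.222. Macrophages express Unc93b1 and the cathepsins strongly. Summed levels of 8 macrophage markers were 1554 to 1690 CPM on day 0, 1229 to 2462 CPM on day 1 and 2515 to 6545 CPM on day 3, and the highest value was in day 3 replicate 1. On day 1, 7 of the 8 macrophage, 8 of 8 T cell, 8 of 8 NK cell and 6 of 6 neutrophil markers had a higher mean than on day 0. Of dendritic, B cell and endothelial markers, 5 of 8, 3 of 6 and 4 of 6 did. All these summed levels overlapped day 0, and each was highest of its day in replicate 3. By replicate, day 1 sums were 1229, 1531 and 2462 CPM for macrophage and 25.2, 24.9 and 80.5 CPM for T cell markers. In both lists, replicates 1 and 2 lay below every untreated tumor. On day 3, all 8 T cell markers (31.5 to 44.8 CPM on day 0, 89.8 to 318 CPM on day 3) and all 8 NK cell markers (95.3 to 136 CPM and 237 to 396 CPM) had higher means, and neutrophil, dendritic and B cell markers likewise. No marker of these lists was at 0 in all tumors of a day, and 7 of the 8 macrophage markers had a higher mean on day 3 than on day 0. The part of host cells in the day 3 levels of the 10 genes was not tested.

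Relatives of the members that are not known as interferon-induced, 6 in all, had log2 medians of -0.10 on day 1 and -0.20 on day 3, and edgeR and DESeq2 called 0 in both. At an unadjusted edgeR p under 0.05 the counts were 0 on day 1 and, on day 3, 1 higher (18.3% of all genes) and 1 lower. Adarb1, which encodes the editing enzyme ADAR2, averaged 77.1 ± 7.67 CPM on day 0 and 46.8 ± 15.1 CPM on day 3, a log2 difference of -0.72 ± 0.27 (edgeR adjusted p = 0.123) next to 0.49 ± 0.17 for Adar. Adarb2 had -0.26 ± 0.21. The products of the kinase genes Eif2ak1 and Eif2ak4 phosphorylate the same translation factor as PKR, on heme loss and amino acid loss. These genes had 0.20 ± 0.08 and -0.38 ± 0.19. Without day 3 replicate 1, the day 3 median of the 6 relatives was -0.10. By edgeR, Adarb1 then had -0.47, Adarb2 -0.02, Eif2ak1 0.17, Eif2ak4 -0.15 and Adar 0.62. The decreases on day 3 thus came in large part from that tumor.

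A set of 20 interferon-induced genes outside the RNA sensors served as a yardstick. All 20 were fitted above day 0 at days 1, 3 and 5 (49.9%, 48% and 50.3% of all genes), with medians of 1.47, 1.08 and 0.43 on the log2 scale, and 10 of 20 were at day 7 (44.4%), with a median of 0.01. On day 3, edgeR called 0, and 18 were higher at an unadjusted p under 0.05 (18.3% of all genes). DESeq2 called 13 higher (9.02%), and 7 without day 3 replicate 1 (0.553% called in either direction). The tumors of all 20 lay above day 0 (19.4%). Oasl2 had 1.51 ± 0.31 on day 1 and 1.31 ± 0.31 on day 3, Ifi44 had 1.72 ± 0.36 and 1.62 ± 0.36, Herc6 had 1.05 ± 0.24 and 0.89 ± 0.24, and Gbp2 had 0.65 ± 0.37 and 0.63 ± 0.37. Their summed level ran from 1577 to 2068 CPM in untreated tumors, from 2660 to 6680 CPM on day 1, from 3230 to 4655 CPM on day 3, from 1798 to 2992 CPM on day 5 and from 1476 to 2012 CPM on day 7. Day 1 replicate 3 again had the highest value. The fitted changes of Dhx58, Zbp1 and Ddx60 (1.19 to 1.47 on days 1 and 3) lay between those of Gbp2 and Ifi44, and those of Tlr3, Ddx58, Ifih1, Adar and Eif2ak2 (0.29 to 0.90) were below its medians.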

How the data were processed

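Polyadenylated RNA was read from a single end (100 bases), and the authors quantified transcripts with kallisto on GRCm38 (mm10) and summed them to genes with tximport. The transcript set and strandedness were not given in the sources used here. The deposited values are estimated counts in whole numbers, with 1 column a tumor. Kallisto divides reads among near-identical copies, so paralog counts are uncertain. A spreadsheet had turned 1 of 32544 entries into a date (at most 0.0268% of counts), and it was left out. Columns were matched to harvest days through the labels.

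Genes above the study's CPM minimum, equal to 8.68 to 11.7 counts, in at least 3 tumors were tested (15494) with edgeR 4.0.16 in R 4.3.3: TMM factors, all 15 tumors, harvest day, quasi-likelihood F test, two-sided, Benjamini-Hochberg adjustment over all genes, called at an adjusted p under 0.05. Intervals are 95%. CPM use the TMM-scaled total, and log2 CPM a prior count of 2. Alternatives were DESeq2 1.42.0, limma 3.58.1 (voom with tumor quality weights), other scaling and filters, a replicate block and leaving out tumors. The scripts were tested on simulated data with known changes. DESeq2 exceeded its nominal rate of false calls there, so the check on false calls was applied only to edgeR and limma. With 3 tumors against 3 an exact permutation test cannot go below 0.1, so none was run.

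Named genes were the 10 members, in each pathway list the 3 with the smallest joint p and the 1 with the largest, the 5 genes most like Tlr3 and like the member mean, and Ifnb1. The members and lists were chosen with earlier results of these data known. Replicates were separate tumors of 1 experiment, so p-values measure the spread between them. Counting limits cover counting error only. Exon lengths and coordinates are from GENCODE M21 (GRCm38), counted from 1, and promoters from RefSeq.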

Additional observations from a re-analysis of the deposited data

How the results depend on the processing

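Shares in parentheses are those of all genes tested. By edgeR, 0 of the 10 genes were called in every comparison with RLE factors, no filter, a robust fit, only the tumors of both days, or the replicate block. DESeq2 called 4 on day 1 (0.258%), 7 on day 3 (12.9%), 7 on day 7 against day 3 (21%) and 8 jointly over the treated days (7.59%). Once day 3 replicate 1 was left out it called 7 (0.462%), 3 (Ifih1, Dhx58 and Ddx60, 0.553%), 5 (0.605%) and 8 (1.18%). Tumor quality weights (limma voom) gave 7 on day 3 (7.65%), 2 on day 5 (Dhx58 and Adar, 15.9%), 7 on day 7 against day 3 (3.41%) and 8 in the joint test (24.9%), and a day 1 median log2 fold change of 0.51. Leaving out both day 1 replicate 3 and day 3 replicate 1, an alternative added after the data were seen, gave 4 on day 3 (Ddx58, Ifih1, Dhx58 and Ddx60, 0.463%), 5 on day 7 against day 3 (0.391%) and a day 1 median of 0.52. Leaving out 1 tumor at a time gave 0 to 3 called on day 3 (3 without day 1 replicate 3, 0.395%). On day 7 against day 3 it gave 0 to 5 (5 without day 3 replicate 3, 13.6%, and 4 without day 1 replicate 3, 0.375%). The day 1 median then ran from 0.51 (without day 1 replicate 3) to 0.97. Up to 6 genes did not overlap on day 5 (without day 5 replicate 3), all of them higher (23% higher, 48.3% in either direction). Up to 3 did not overlap on day 7 (without day 0 replicate 1), 1 higher and 2 lower (8.11% and 10.8%, 18.9% in either direction). The causes were not tested. Among values of single genes over all alternatives, with the lowest and highest value of each gene standing for the tumors left out, 30 changed sign and the others kept their direction. Medians and DESeq2 calls of the pathway lists without day 3 replicate 1, and medians without day 1 replicate 3, were also added after the data were seen.

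Signs turned only where the log2 fold change was close to 0, in Mavs, Ticam1 and Fadd and on days 5 and 7. With 1 tumor left out, Mavs ranged from -0.028 to 0.16 on day 1 and from -0.061 to 0.092 on day 5, and Fadd from -0.039 to 0.099 on day 3. On day 5 Ticam1 ranged from -0.00097 to 0.18 and Eif2ak2 from -0.063 to 0.0084. On day 7 the ranges were -0.095 to 0.11 for Ticam1, -0.020 to 0.017 for Ddx58, -0.092 to 0.048 for Ifih1, -0.052 to 0.23 for Dhx58, -0.12 to 0.020 for Eif2ak2, -0.077 to 0.12 for Adar and -0.13 to 0.032 for Ddx60. With quality weights, Mavs was 0.024 on day 3 and 0.039 on day 5, Eif2ak2 0.0077 on day 5, and Dhx58 -0.040 and Adar -0.00076 on day 7. Mavs on day 5 and Ddx58 on day 7 were 0.0085 and 0.0089 with DESeq2, 0.0088 and 0.0089 with RLE factors, 0.011 and 0.025 with tumors of both days only, 0.013 and 0.0093 with DESeq2 without day 3 replicate 1, and 0.0076 and 0.013 without both tumors. Without the filter, Ddx58 on day 7 was 0.0032 and Fadd on day 3 was -0.0062.

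Whether replicate numbers paired the tumors was not tested, since pairs of different numbers were not compared. Of 30 same-number pairs across days, with correlations of their deviations from -0.62 to 0.51, 9 were over 0.1. For replicate 3 they were 0.49 (days 3 and 5), 0.51 (days 3 and 7) and 0.48 (days 5 and 7). Between day 1 and days 3, 5 and 7 that replicate had -0.53, -0.62 and -0.54. With the replicate block 0 genes were called in every comparison, and the only sign to turn was that of Ddx58 on day 7 (0.0012).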
